A study of Mus musculus with 4 samples.

Results

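The 10 genes described here encode parts of the transcription factor AP-1 and other immediate-early proteins: Fos, Fosb and Fosl2 of the Fos family, Jun, Junb and Jund of the Jun family, and Egr1, Atf3, Ier2 and Dusp1. The rule names them and uses no measured value, though it was written with earlier results of these data known. All 10 were found among the 24421 rows of the count table. AP-1 is a pair of proteins joined by a leucine zipper, either a Jun protein with a Fos or ATF protein or a pair of Jun proteins. Growth factors, cytokines, mechanical load and injury switch on several of these genes within minutes without new protein synthesis, through MAP kinases that act on factors already bound at the promoters. In cartilage AP-1 is known for driving matrix-degrading proteases, and the same genes are known to respond to tissue handling.

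Messenger RNA was counted in 4 libraries of the surface layer of articular cartilage, taken from the medial condyle of the femur 8 weeks after surgery in C57BL/6J mice. DMM knees, in which the ligament that holds the medial meniscus was cut (destabilization of the medial meniscus), and sham-operated knees came from the same 2 animals, M05 and M04, with 1 library per knee. This made 2 DMM libraries and 2 sham libraries. Genotype is given as wild type for both animals in the sample labels, but the design text marks M05 as KO without naming a gene, so M05 against M04 is treated as a comparison of 2 animals. The sham samples were grouped by title and treatment, although their descriptions mention the DMM knee. Neither age nor sex nor the time to lysis is stated in the labels.

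The total count was between 12712425 and 19336628 per library, of which the 10 genes held between 2594 and 3579 counts. CPM (counts scaled to library size) are given on the scale of TMM, a method that sets library sizes equal by the bulk of the genes. The defining cartilage transcripts Col2a1, Acan and Sox9 were counted in all 4 libraries. The summed level of 9 chondrocyte markers was 4109 CPM in the DMM knee of M05 and 5538 CPM in that of M04, against 1212 CPM and 4747 CPM in the sham knees of M05 and M04, so the sham knee of M05 stood lowest. Marrow and blood transcripts were far more abundant, with 187439 to 319678 CPM for 7 erythroid markers and 41175 to 67894 CPM for 8 neutrophil markers. Skeletal muscle markers (7) ranged from 136 to 456 CPM, and no marker of these 4 lists was at 0 in every library. Each of the 10 genes is active in many of these cell types, so the values are those of the mixture. In such bulk samples fewer cells of a type and less RNA per cell cannot be told apart.

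The sequences just before the transcription starts of these genes were searched for elements through which several of them are known to be induced. ATF and CREB proteins bind the element TGACGTCA, of which TGACG is the core, and a Jun protein paired with ATF2 binds the variant TGACATCA in the Jun promoter. In the RefSeq promoters (GRCm38.p6, 250 bases before to 50 bases after the start, both strands), TGACG was found in 5 of the 8 promoters searched, all but those of Egr1 and Ier2, or 62.5%. It was found in 29.9% of the promoters of tested genes and 20.8% of all 32851 promoters in the table. The full TGACGTCA, which contains TGACG, was found only in that of Dusp1 (2.91% of promoters of tested genes), and TGACATCA only in that of Jun (1.82%). The stretches below carry the match nearest the start in capitals, in the direction of transcription. In Atf3 the core lies on the other strand and reads CGTCA.
Fos (chr12:85473796-85473856, + strand): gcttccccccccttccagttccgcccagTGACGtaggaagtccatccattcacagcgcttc
Fosb (chr7:19310073-19310133, - strand): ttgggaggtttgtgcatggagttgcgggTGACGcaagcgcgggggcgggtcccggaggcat
Junb (chr8:84978822-84978882, - strand): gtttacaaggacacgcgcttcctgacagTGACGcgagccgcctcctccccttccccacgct
Atf3 (chr1:191183334-191183368, - strand): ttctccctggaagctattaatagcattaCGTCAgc
Dusp1 (chr17:26508580-26508643, - strand): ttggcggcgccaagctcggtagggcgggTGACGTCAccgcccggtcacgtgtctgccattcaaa
Jun (chr4:95052232-95052295, - strand): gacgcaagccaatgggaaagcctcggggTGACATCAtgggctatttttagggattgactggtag
Neither motif was found in the windows of Fosl2 and Jund. The CArG box, the element of serum response factor, was found in none of the 8 and in 1.31% of promoters of tested genes. Elements further than 250 bases before the start, or in the promoters of Egr1 and Ier2, could not be found by this search. The absence of the box is therefore limited to these windows. A match is a run of letters and not a measured binding site.

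On the scale of FPKM, which allows for transcript length, the 10 genes spread over a wide range of levels. Jund was the highest, at 28.2 to 29.4 FPKM over the 4 libraries, and Ier2 followed with 19.1 to 27.97 FPKM. Junb had 11.7 to 17.3 FPKM and Dusp1 9.23 to 14.0 FPKM, and the ranges of this pair overlapped. Fosl2 stood below them at 6.02 to 7.58 FPKM. The ranges of Jun (1.71 to 3.45 FPKM), Egr1 (1.92 to 2.40 FPKM) and Fos (1.34 to 3.73 FPKM) overlapped one another, and that of Atf3 (0.529 to 1.45 FPKM) reached into the range of Fos. Fosb was lowest at 0.023 to 0.209 FPKM. The median of all tested genes was 4.72 FPKM, so Fos, Jun, Egr1 and Atf3 lay below it while Jund, Ier2, Junb, Dusp1 and Fosl2 lay above it.

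Jun family RNA made up most of the AP-1 subunit RNA in every library. Of the summed FPKM of the 6 Fos and Jun genes, the Jun family held 82.2% in the DMM knee of M05 and 84.0% in that of M04, against 84.8% and 84.1% in the sham knees of M05 and M04. Jund alone held between 50.6% and 55.4%. The sum itself was 54.8 FPKM in the DMM knee of M05 and 53.0 FPKM in that of M04, against 55.7 FPKM and 57.3 FPKM in the sham knees. Ratios to Jun, which was lower in M05, differed between the mice. The ratio of Fos to Jun in FPKM was 2.095 (DMM) and 1.31 (sham) in M05, against 0.420 (DMM) and 0.436 (sham) in M04. That of Junb to Jun was 7.97 (DMM) and 10.1 (sham) in M05, against 3.38 (DMM) and 5.11 (sham) in M04. These ratios are descriptions of single libraries without a test.

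**Figure D1:**
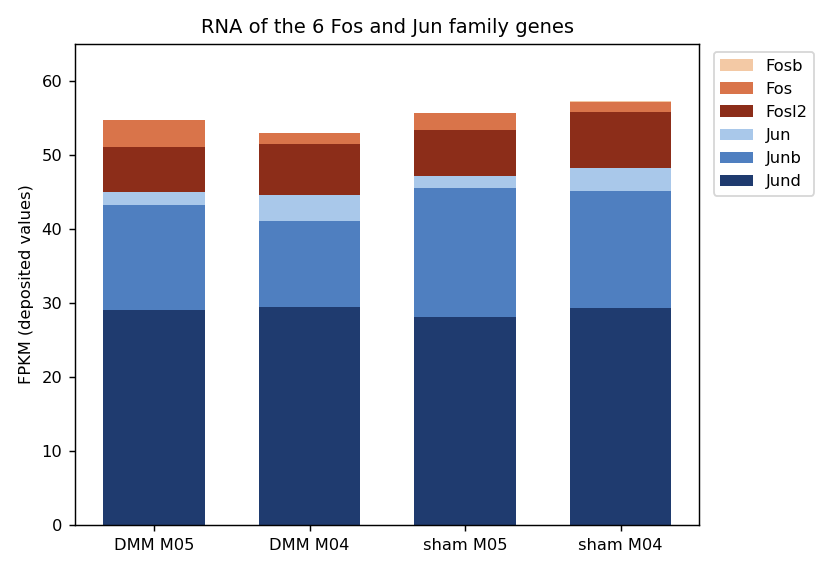
Stacked bars give the deposited FPKM of the 6 Fos and Jun family genes in each of the 4 libraries, 1 bar per library. The Jund segment is the tallest in every bar, at 28.2 to 29.4 FPKM, and the Fos segment is tallest in the DMM knee of M05 at 3.73 FPKM.

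The first comparison asked whether these genes differ between DMM and sham knees 8 weeks after surgery. No member passed the test: edgeR's quasi-likelihood test, with a term for the animal, called 0 of the 9 tested members higher and 0 lower at an adjusted p of 0.05, while 0.633% of all 13103 genes tested were called higher and 0.0153% lower. None of the 9 had an unadjusted p under 0.05, where 5.20% of all genes did. DESeq2 and limma on FPKM called none either. Fold changes lay between -0.36 and 0.49 on the log2 scale, with a median of 0.11 against -0.01 over all genes tested. In 7 of the 9 the ratio had the same sign in both mice, as it had in 47.1% of all genes. The fit has 1 residual degree of freedom, and for most genes its spread is taken from the trend across genes.

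Among the Jun genes, Jund showed the least movement. Jund, a broadly expressed subunit that often restrains growth, had 76.9 CPM in the DMM knee of M05 and 78.6 CPM in that of M04, against 75.7 CPM and 77.8 CPM in the sham knees of M05 and M04. The 4 values overlapped between the surgeries, and the log2 fold change of 0.02 had a 95% interval of -0.29 to 0.32. Junb, a subunit induced early and a weaker activator than Jun, had 23.0 CPM (M05) and 19.1 CPM (M04) in DMM knees, against 28.4 CPM (M05) and 25.6 CPM (M04) in sham knees. Both DMM values lay below both sham values, the only such case among the 9 genes, where 12.3% of all genes showed this order. The log2 fold change of Junb was -0.36 (SE 0.19, unadjusted p = 0.0599, adjusted p = 0.996 by edgeR), with an interval of -0.74 to 0.02. Jun, the strongest activator of the family, had 5.26 CPM (M05) and 10.3 CPM (M04) in DMM knees, against 5.10 CPM (M05) and 9.11 CPM (M04) in sham knees. Its groups overlapped, since it differed more between the mice than between the surgeries, and its log2 fold change was 0.11 (interval -0.50 to 0.73).

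Of the Fos family, Fos and Fosb were low and imprecise, while Fosl2 was better counted. Fos had 85 counts in the DMM knee of M05 and 43 in that of M04, against 72 and 34 in the sham knees of M05 and M04, or 6.98 and 2.88 CPM against 4.22 and 2.52 CPM. The DMM knee of each mouse was above its sham knee, but the groups overlapped. The log2 fold change of 0.48 (SE 0.42, adjusted p = 0.9997 by edgeR) had an interval of -0.35 to 1.31. Fosl2, the Fos relative that is expressed more steadily and works in bone and cartilage, had 34.1 CPM (M05) and 40.2 CPM (M04) in DMM knees, against 35.4 CPM (M05) and 43.5 CPM (M04) in sham knees. Its log2 fold change was -0.08 (interval -0.42 to 0.25). Fosb, which also gives a long-lived short protein form in other tissues, had 2 and 3 counts in the DMM knees of M05 and M04, against 3 and 10 in the sham knees. It did not pass the filter on low counts. Without that filter its log2 fold change was -1.10 (SE 1.75, adjusted p = 0.9996 by edgeR), which does not resolve a direction at this depth.

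The other inducible members did not pass either. Egr1, a zinc finger factor induced through serum response factor, had 6.32 CPM (M05) and 7.02 CPM (M04) in DMM knees, against 5.51 CPM (M05) and 6.67 CPM (M04) in sham knees, with a log2 fold change of 0.14 (interval -0.53 to 0.80). Ier2, a small nuclear protein of the early response, had 33.7 CPM (M05) and 25.1 CPM (M04) in DMM knees, against 36.9 CPM (M05) and 26.4 CPM (M04) in sham knees, with a log2 fold change of -0.10 (interval -0.45 to 0.25). In both genes the surgeries overlapped. Atf3, a stress-induced partner of Jun, had 31 counts (M05) and 25 counts (M04) in DMM knees, against 16 counts (M05) and 30 counts (M04) in sham knees. The sham knee of M05 was lowest at 0.938 CPM, with an exact Poisson interval of 0.536 to 1.52 CPM that covers counting error only. Dusp1, the phosphatase that switches off MAP kinases and so ends the response, had 24.1 CPM (M05) and 16.2 CPM (M04) in DMM knees, against 17.7 CPM (M05) and 18.6 CPM (M04) in sham knees. Here the DMM knee of M05 stood above the other 3. The log2 fold changes were 0.49 for Atf3 (interval -0.79 to 1.76) and 0.13 for Dusp1 (interval -0.28 to 0.54).

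**Figure D2:**
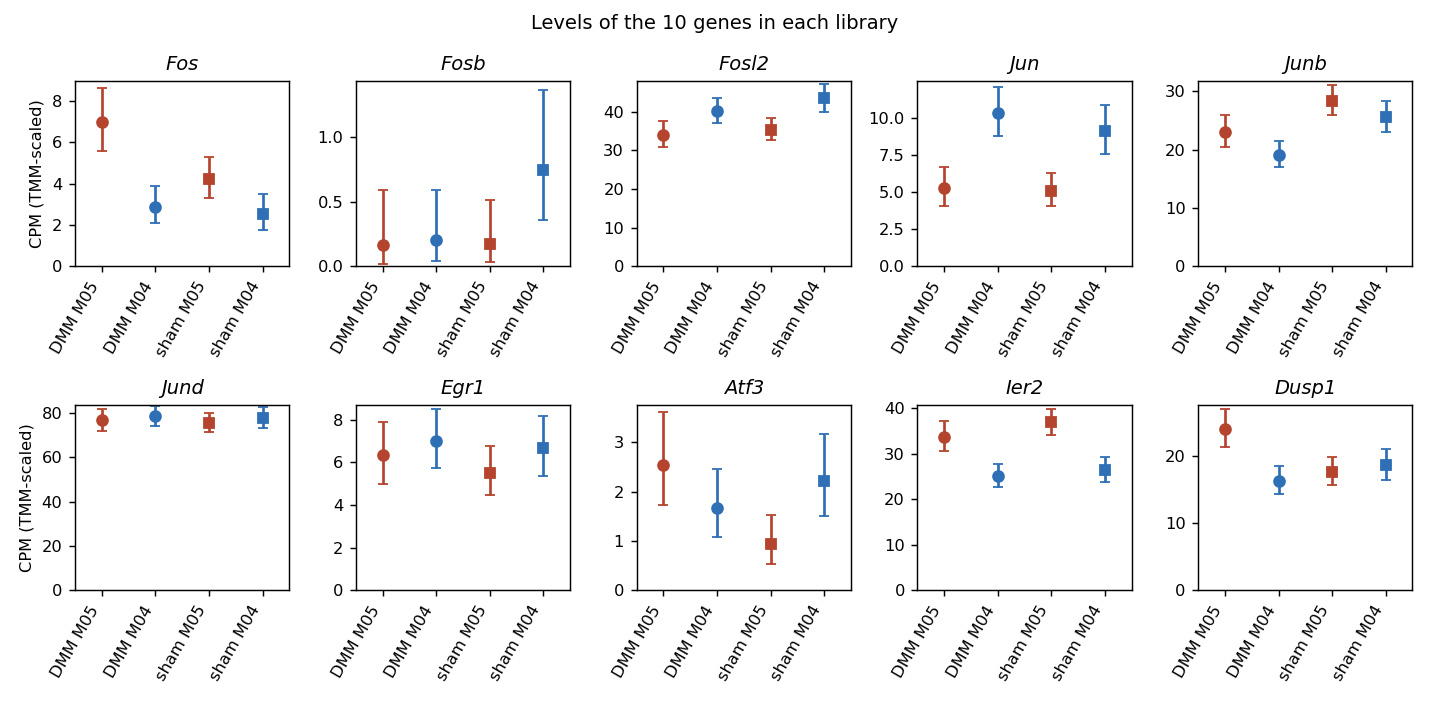
Each panel gives a gene's TMM-scaled CPM in the 4 libraries, with circles for DMM, squares for sham, red for M05 and blue for M04, and bars for exact 95% Poisson intervals (counting error only). Both DMM values lie below both sham values for Junb. The colours separate with M05 above for Fos and Ier2, and with M05 below for Fosb, Fosl2, Jun, Jund and Egr1.

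The second comparison set the libraries of M05 against those of M04. Each side is 1 animal with 2 knees, so the SE, interval and p do not measure the spread between animals. No member passed here either: by edgeR with the surgery as a term, 0 of 9 were higher and 0 lower in M05 at an adjusted p of 0.05, against 0.962% and 1.64% of all genes tested, or 2.60% in either direction. Limma on FPKM also called none, and DESeq2 gave an adjusted p for 1 of the 9 only (Jund), which it did not call. Between the mice the split of calls over all genes turned with the tool and the libraries, with 52 higher and 20 lower by DESeq2, which gave an adjusted p for 1672 genes, and 200 higher and 131 lower without the DMM knee of M05, against 126 higher and 215 lower here. An unadjusted p under 0.05 was reached by 3 of the 9 (Jun, Ier2 and Fos), where 14.3% of all genes reached it. By DESeq2 it was 1 of the 9, by limma 3, and 0 to 4 with a library left out. Jun was lower in both knees of M05 than in both of M04 and had a log2 fold change of -0.90 (SE 0.32, interval -1.52 to -0.28, unadjusted p = 0.00436, adjusted p = 0.1001). Fos had the opposite sign, higher in both knees of M05, at 1.02 (SE 0.42, interval 0.18 to 1.85, unadjusted p = 0.0167, adjusted p = 0.202). Ier2 was also higher in both knees of M05, at 0.45 (SE 0.18, interval 0.10 to 0.81, unadjusted p = 0.0120, adjusted p = 0.174). Of the 9 genes, 2 had both M05 values above both M04 values and 4 had both below, where 22.5% and 22.8% of all genes did. The other 6 members had log2 fold changes from -0.29 for Atf3 to 0.24 for Dusp1, with intervals that include 0.

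**Figure D3:**
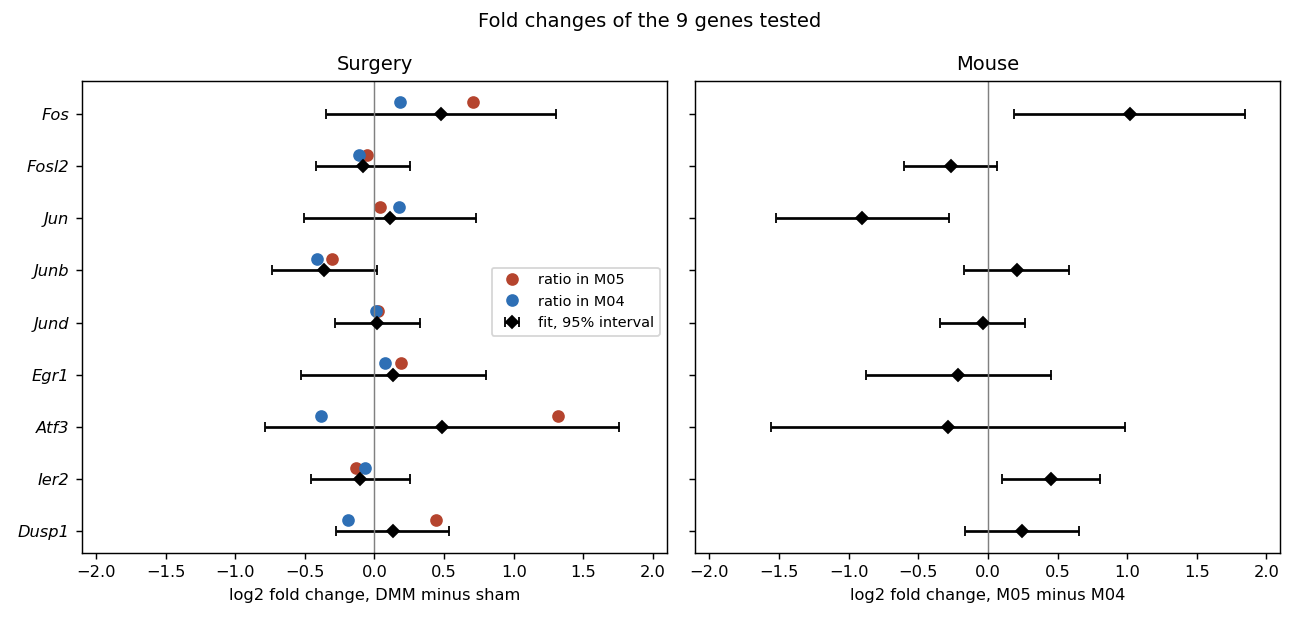
Diamonds give the log2 fold change of the 9 tested genes with its 95% interval, DMM minus sham on the left and M05 minus M04 on the right, and coloured points on the left give the ratio within each mouse. All intervals on the left include 0, and those of Fos, Jun and Ier2 on the right do not, although none of these passed after adjustment.

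Cell markers and other transcripts also differed between the mice. By edgeR 7 of the 9 chondrocyte markers were lower in M05 past the threshold, as were 2 of 5 endothelial and 1 of 6 osteoblast markers, and 2 of the 8 neutrophil markers were higher. Limma called none of these lists' genes, and DESeq2 called 1 chondrocyte marker of the 6 and 1 neutrophil marker of the 8 to which it gave an adjusted p. The summed chondrocyte markers were 4109 CPM (DMM) and 1212 CPM (sham) in M05, against 5538 CPM (DMM) and 4747 CPM (sham) in M04. Of 12 heat shock genes, a group that responds to handling and stress, 1 was lower in M05, the chaperone gene Hsph1 (-0.68, SE 0.16, adjusted p = 0.00213 by edgeR), and the median of the group was -0.24. Rn45s, the precursor of ribosomal RNA, had 16420 CPM in the DMM and 7988 CPM in the sham knee of M05, against 4556 CPM and 5626 CPM in the DMM and sham knees of M04. It was higher in M05 past the threshold (1.18, SE 0.22, adjusted p = 5.08e-05 by edgeR), with a value of 0.65 without the DMM knee of M05. The call of Rn45s was lost without either M04 library, and that of Hsph1 also without the sham knee of M05. The part of these transcripts in the values of Fos, Jun and Ier2 was not tested.

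Across all 4 libraries the members varied about as much as other genes. The distance between the highest and the lowest library, on the log2 scale, had a median of 0.56 over the 9 members and 0.55 over all genes tested. It was largest in Fos (1.42) and Atf3 (1.32) and smallest in Jund (0.06). The mean profile of the 9 genes was nearly flat, from -0.11 to 0.14 log2 units around its mean. It averages over members of opposite direction between the mice, such as Fos (log2 fold change 1.02, M05 minus M04) and Jun (-0.90). Among 7464 genes with at least 10 CPM, those with the smallest root mean square difference from this profile over the 4 libraries were Trim27, Rpa2, Alas1, Rbm22 and Tox4 (0.0096 to 0.0139 log2 units). For Fos alone these were Fkbp7, Sdsl, Pigx, Slc9b2 and Rn45s (0.184 to 0.231 log2 units).

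Genes of the wider response were mostly without a call as well. Of 30 other immediate-early genes 27 were tested and 1 was higher in DMM knees by edgeR, against 0.633% of all genes. This list too was chosen with earlier results of these data known. The gene called was Cyr61, which encodes the matricellular protein CCN1 that responds to serum and load. Cyr61 had 13.8 CPM (M05) and 15.4 CPM (M04) in DMM knees, against 5.81 CPM (M05) and 7.48 CPM (M04) in sham knees, which gave 1.15 on the log2 scale (SE 0.27, adjusted p = 0.00636 by edgeR). Its groups did not overlap. Its fold change stayed between 0.96 and 1.33 when any library was left out, but the call was lost without either DMM library and without the sham knee of M05, and with DESeq2, with limma, without the block and with scaling without haemoglobin rows. The median of the 27 was 0.003. Mcl1, which protects cells from apoptosis, and Btg2, which restrains proliferation, were the most abundant and had log2 fold changes of 0.0007 and -0.05. Nfil3 (0.30), Klf10 (-0.46) and Csrnp1 (-0.46) did not pass. Ptgs2, the inducible cyclooxygenase, stood apart at 2.15 but on few counts, with 11 (M05) and 17 (M04) in DMM knees against 5 (M05) and 2 (M04) in sham knees, and did not pass (adjusted p = 0.878); it was named after its values were seen. In the comparison of the mice 1 of the 27 was lower in M05, the clock gene Per1 (-1.04, SE 0.23, adjusted p = 0.00135 by edgeR). That call was lost with limma, without either M04 library and without the sham knee of M05, and DESeq2 gave no adjusted p for Per1.

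Partners, regulators and upstream factors gave 0 calls between DMM and sham knees by edgeR. Of the AP-1 partners and relatives 12 of 13 were tested, with a median log2 fold change of -0.16. Atf4, the factor of the integrated stress response, had 77.0 CPM on average and a log2 fold change of -0.15, and the lowest and highest at 5 CPM or more were Mafg (-0.39) and Batf (0.32). Fosl1, a Fos relative, had 4 counts in the sham knee of M05 and 0 in the other libraries. Of 7 other MAP kinase phosphatases 6 were tested, with a median of -0.15, among them Dusp6 (0.09), which acts on ERK, and Dusp2 (-0.32). Of 17 upstream kinases and factors 16 were tested, with a median of -0.0039. The abundant kinase ERK1, encoded by Mapk3, had 0.19, and the CRE-binding factor Creb1 had -0.35. All 12 heat shock genes were tested, with a median of 0.07, from -0.25 for Dnajb1 to 0.27 for Bag3. In these 4 lists 0 genes reached an unadjusted p under 0.05 by edgeR, where 5.20% of all genes did, and 0 did by DESeq2 or limma.

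Of 17 genes known as AP-1 targets 14 were tested and 2 were higher in DMM knees by edgeR, against 0.633% of all genes. The 14 had a median log2 fold change of 0.24. The list was chosen with earlier results of these data known, so these calls are not independent of that choice. Timp1, an inhibitor of metalloproteases, had 36.1 CPM (M05) and 33.9 CPM (M04) in DMM knees, against 18.4 CPM (M05) and 14.0 CPM (M04) in sham knees, which gave 1.12 on the log2 scale (SE 0.19, adjusted p = 4.28e-06 by edgeR). Mmp3, the protease stromelysin, had 20 and 90 counts in the DMM knees of M05 and M04, against 8 and 10 counts in the sham knees (2.46, SE 0.64, adjusted p = 0.0277 by edgeR). In neither gene did the surgeries overlap. Without the DMM knee of M04 the value of Mmp3 was 1.44, and its call was lost, as it was without either of the M05 libraries, with DESeq2 and with limma (1.18 with a pseudocount of 1). For Timp1 the call was lost without either DMM library and without the sham knee of M05, with values from 0.93 to 1.32. The collagenase Mmp13 (0.53, adjusted p = 0.103), Spp1 (0.38), the gelatinase Mmp9 (0.03), Cd44 (-0.14) and Plaur (-0.22) did not pass. Beside these calls, 5 of 9 chondrocyte markers, 2 of 6 osteoblast markers and 1 of 5 fibroblast markers were higher in DMM knees by edgeR, and none of these by DESeq2 or limma. For the chondrocyte markers the median log2 ratio of DMM to sham was 1.42 in M05 and 0.29 in M04, and the sham knee of M05 was lowest. The summed osteoblast markers were 2001 CPM (M05) and 1850 CPM (M04) in DMM knees, against 1795 CPM (M05) and 1488 CPM (M04) in sham knees. Their part in the values of Cyr61, Timp1 and Mmp3 was not tested.

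**Figure D4:**
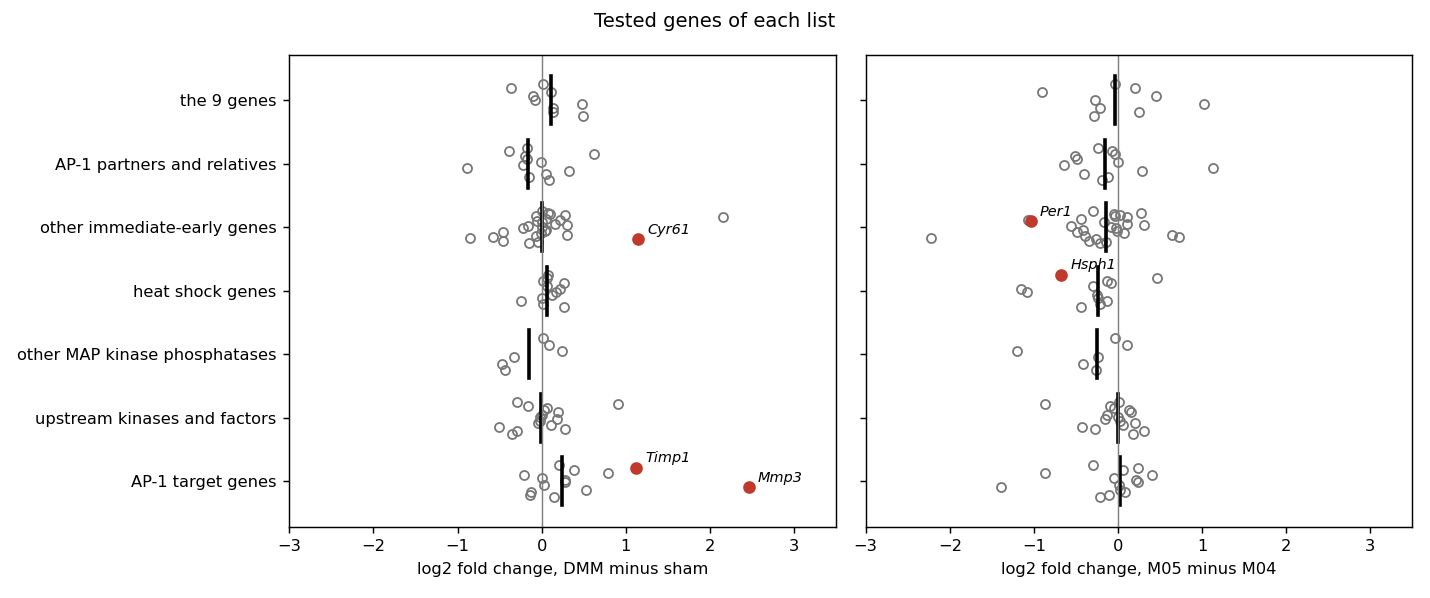
Each point is the log2 fold change of a tested gene in its list, DMM minus sham on the left and M05 minus M04 on the right; filled red points passed an adjusted p of 0.05 and black lines are list medians. Cyr61, Timp1 and Mmp3 are the filled points on the left and Per1 and Hsph1 those on the right, and none of the 9 genes in the top line is filled.

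The AP-1 element itself, TGANTCA with N for any base, was searched in the same promoter windows, since Fos and Jun proteins bind it. It is its own reverse complement and neither it nor TGACG contains the other. By edgeR 83 genes were higher in DMM knees, where DESeq2 called 13 and limma 0. Of the 83, 54 had a promoter in the table, and 12 of these 54 (22.2%) held the element, against 642 of 9883 tested genes (6.5%). The Serpina1 genes, near-identical copies, account for 4 of the 12, and without them 8 of 50 genes (16%) held it. Of the genes higher in M05 it was 12 of 88 (13.6%), and of those lower in M05 it was 7 of 157 (4.46%). The AP-1 element was not the only motif with a raised share. Counted by promoter, it was in 18.8% of those of genes higher in DMM knees, against 5.42% for tested genes. For TATAAA the shares were 17.2% against 7.35%. The other motifs searched were not more frequent in genes higher in DMM knees. No test was made of these shares. The 8 others are Col6a1, Ecm1, Emp1, Ltbp3, Mmp3, Sbsn, Susd5 and Ucma, with log2 fold changes from 0.66 for Ecm1 to 2.46 for Mmp3, and in Ucma the match lies after the start. All of the 12 but Emp1 had their lowest CPM in the sham knee of M05. The summed chondrocyte markers were lowest in that knee too, at 1212 CPM. The part of the cell mixture in these shares was not tested. None of the 8 promoters of the AP-1 and immediate-early genes searched held the AP-1 element, where 5.42% of promoters of tested genes did. In the target list 6 of 13 promoters held the element, those of Mmp3, Mmp10, Mmp13, Plaur, Il6 and Mt2. The promoter of Timp1, the other target gene higher in DMM knees, did not. Mmp10 had 1 count in the DMM knee of M05 and 0 in the other libraries. The element is shown in capitals for Mmp3, which was higher in DMM knees, and Mmp13, which did not pass.
Mmp3 (chr9:7445748-7445810, + strand): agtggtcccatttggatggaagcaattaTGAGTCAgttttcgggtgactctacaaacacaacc
Mmp13 (chr9:7272451-7272513, + strand): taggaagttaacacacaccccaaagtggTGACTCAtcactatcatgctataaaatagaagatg

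The gene models set limits on what the counts can resolve. In GENCODE M21, 4 of the 10 genes (Jun, Junb, Jund and Ier2) have 1 exon, so their reads cannot be sorted by splicing. RNA was treated with DNase, per the labels' protocols. Exons of 4 members share bases with a gene on the other strand, and it is not stated whether the libraries kept strand. Junb shares 173 exonic bases with Prdx2, an antioxidant enzyme gene abundant in red cells, which had 14644 to 19947 counts per library against 280 to 484 for Junb. Jund shares 877 of its 1668 exonic bases with the antisense gene Gm11175, Jun 232 bases with Junos, and Dusp1 11 bases with Ergic1. The levels of these 4 genes are uncertain to that extent.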

How the data were processed

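Poly(A) RNA was sequenced as single-end reads of 100 bases, per the labels' protocols, and the submitters' processing notes name GRCm39 (mm39) as the build. No source used here names the aligner, the counter or the strand setting. Gene values in the deposited table are estimated counts (9.21% to 10.9% of values not whole). It lists each library in a second column with all 24421 values equal, which was counted once. The deposited FPKM table, scaled by the authors for length and depth, served for levels between genes and for alternatives. Counts were rounded, filtered by filterByExpr (13103 genes kept), and scaled by TMM. The fit was edgeR 4.0.16 (quasi-likelihood, robust; R 4.3.3) on mouse plus surgery, with Benjamini-Hochberg adjustment over all genes tested, threshold 0.05. Intervals (95%) are the log2 fold change plus or minus its SE times the quantile of t that gives this coverage. For 10879 genes (83%) the prior degrees of freedom came out infinite. Mouse entered as a block since the labels pair the knees by animal, and deviations of same-mouse libraries correlated at 0.126. Ratios within a mouse use a prior count of 2.

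Alternatives were another scaling, other filters, DESeq2 1.42.0, limma 3.58.1 on log2(FPKM + 0.1) and log2(FPKM + 1), no block, no robust moderation and leaving out each library. The code was tested on simulated data. The members and gene lists were chosen with earlier results of these data known. Named from each other list were genes past the threshold and, at a mean of at least 5 CPM, those among the 2 most abundant, 2 highest and 2 lowest in fold change. Promoters are RefSeq's (GRCm38.p6), matched by symbol; their build differs from that of the counts, so no count was placed on them.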

Additional observations from a re-analysis of the deposited data

Results flagged for a closer look

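Of the 9 genes tested, 2 moved in opposite directions in M05 and M04. For Atf3 the log2 ratio of DMM to sham was 1.32 in M05 and -0.38 in M04, on 16 to 31 counts per library. For Dusp1 it was 0.44 in M05 and -0.19 in M04. With 1 pair of knees per mouse the difference between the mice was not tested.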

How the results depend on the processing

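No member passed the threshold under any of the alternatives run, in either comparison. Over those that gave an adjusted p, the smallest was 0.987 for DMM against sham (Junb) and 0.0820 for M05 against M04 (Jun). DESeq2 gave none for 8 of the 9 members between the mice, and one for 1672 of 13103 genes. The number of all genes called moved more. For DMM against sham it was 85, and 35 with DESeq2 size factors, 25 with scaling without haemoglobin rows, 13 with DESeq2, 0 with no replicate block (322 at an unadjusted p under 0.05) and 0 with limma on FPKM at both pseudocounts (473 and 496 at an unadjusted p under 0.05). When 1 library was left out it ranged from 0 (without the DMM knee of M04) to 121 (without the sham knee of M04), with 4 without the DMM and 1 without the sham knee of M05. For M05 against M04 it was 341, and 186, 113 and 72 in the same order, 0 with no surgery term (1819 at an unadjusted p under 0.05) and 0 with limma on FPKM (1117 and 1162). With 1 library left out it ranged from 0 (without the sham knee of M04) to 331 (without the DMM knee of M05), with 2 without the DMM knee of M04 and 58 without the sham knee of M05. The cause was not tested. Fits of 3 libraries could carry no block, and so hold part of the other comparison. In these fits the DMM to sham log2 fold change ranged from -0.24 to 1.04 for Fos, -0.23 to 0.0715 for Fosl2, -0.42 to 0.61 for Jun, -0.0030 to 0.0407 for Jund, -0.0839 to 1.16 for Atf3, -0.34 to 0.15 for Ier2 and -0.16 to 0.41 for Dusp1. Between the mice that of Atf3 ranged from -1.04 to 0.39. Within M04 alone Atf3 stood at -0.38 and Dusp1 at -0.19. Junb ranged from -0.50 to -0.23 and Egr1 from 0.00044 (without the sham knee of M05) to 0.28. Between the mice Fos ranged from 0.65 to 1.37, Jun from -0.98 to -0.82, Ier2 from 0.39 to 0.52, Junb from 0.0044 to 0.44, Egr1 from -0.31 to -0.11 and Dusp1 from 0.022 to 0.47. Of the other genes called, Timp1 lost its call with no replicate block (adjusted p = 0.512) and with limma, and kept it with DESeq2 (adjusted p = 0.0430). Mmp3 lost its call with DESeq2 size factors (adjusted p = 0.0832), with scaling without haemoglobin rows (adjusted p = 0.145) and with no replicate block (adjusted p = 0.9999), and Rn45s with DESeq2 (adjusted p = 0.530) and with scaling without haemoglobin rows (adjusted p = 0.0809). Per1, Hsph1 and Rn45s lost theirs with no surgery term and with limma. Hsph1 kept its call with DESeq2 (adjusted p = 0.0277). Depth limits Fosb, Atf3 and Fos, with 2 to 85 counts per library.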
